A study of Macaca mulatta with 51 samples.

Results

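Transcripts of 9 genes of muscle cell identity were followed in skeletal muscle (SM) of obese rhesus macaques before, at the end of and after treatment with FGF21. The genes were PAX7 (ENSG00000009709), MYF5 (ENSG00000111049), MYOD1 (ENSG00000129152), MYOG (ENSG00000122180), MYF6 (ENSG00000111046), MEF2A (ENSG00000068305), MEF2C (ENSG00000081189), MEF2D (ENSG00000116604) and DES (ENSG00000175084), taken from the deposited count table by their human gene symbol, with the human Ensembl identifiers the table pairs with them. All 9 were found among 16033 genes, and all 9 passed the filter on low counts in SM, which left 12617 genes. In subcutaneous adipose tissue (AT), 5 of the 9 passed the same filter.

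PAX7 is the transcription factor that marks satellite cells, the resident stem cells of muscle that lie between the fibre and its basal lamina. When satellite cells are activated they express MYF5 and MYOD1, and as myoblasts leave the cell cycle and fuse, MYOG and then MYF6 take over, all 4 of them basic helix-loop-helix factors that pair with E proteins on E-box sites. MEF2A, MEF2C and MEF2D are MADS-box factors that work together with the myogenic factors and drive genes of the contractile apparatus in the fibre, and DES encodes desmin, the intermediate filament that ties neighbouring Z-discs together.

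The animals were adult rhesus macaques (Macaca mulatta) of 11 to 22 years, males and ovariectomized females, made obese on a high-fat diet. All received native human FGF21, a metabolic hormone, by daily subcutaneous injection in rising doses for 12 weeks. The paper states that they lost body weight over the treatment and regained it during washout. No untreated animals were among the samples, so that each animal was its own reference and treatment, weight change, time and age cannot be told apart. Punch biopsies of the gastrocnemius were taken before the first dose (pre-treatment), at week 12 (post-treatment) and 16 weeks after the last dose (washout). SM counts from 8 animals were used: 6 libraries pre-treatment, 8 post-treatment and 7 at washout. Both libraries were at hand in 6 animals for post-treatment against pre-treatment, in 7 for washout against post-treatment and in 6 for washout against pre-treatment.

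The SM libraries held 14455195 to 21740711 counts on genes (median 17114678). The 9 measured fibre markers (ACTA1, MYH1, MYH2, MYH7, CKM, MB, TNNT3, TTN and NEB) were abundant in every SM library and none was at 0, but the libraries were not alike. In the post-treatment libraries of animals 20275, 21189, 21866 and 24849 the fibre markers summed to 54511 to 129265 CPM (read counts relative to the library total, scaled by the TMM method), against 250496 to 279135 CPM in the other 4 post-treatment libraries, 152057 to 230223 CPM pre-treatment and 195707 to 280164 CPM at washout. The same 4 libraries had the highest summed level of the 6 fibroblast and progenitor markers post-treatment, 4534 to 16739 CPM against 218 to 540 CPM in the other 4. Library identifiers fell into 3 number series of unknown meaning, and 6 of the 7 washout libraries but 2 of 6 pre-treatment and 3 of 8 post-treatment libraries were in the last one. Of the 4 libraries with few fibre transcripts, 3 (animals 21189, 21866 and 24849) were the post-treatment libraries of the last series. In such bulk samples, fewer cells of a type and less RNA per cell cannot be told apart.

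At washout the late myogenic factors MYF6 and MYOG had lower mean levels than at both earlier time points, but neither passed the test in the fit used here. MYF6, the factor that stays on in mature fibres, had a lowest, median and highest level of 64.05, 123.1 and 304 CPM pre-treatment, 78.3, 104.9 and 247.9 CPM post-treatment and 51.3, 62.75 and 130.9 CPM at washout. The high values were those of animal 19832 pre-treatment and animal 23004 post-treatment, and the time points overlapped. The group means were 148 ± 84.5 CPM (SD, n = 6), 118.3 ± 54.1 CPM (SD, n = 8) and 77.7 ± 30.7 CPM (SD, n = 7).

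MYF6 was lower at washout than pre-treatment in 6 of 6 animals, by a log2 difference of 0.28 to 1.21 in size. The fitted log2 fold change was -0.79 (SE 0.20, 95% interval -1.21 to -0.36), with p = 0.00129 and adjusted p = 0.162 in edgeR's quasi-likelihood test, rank 100 of the genes tested, so that it did not pass the limit of 0.05. DESeq2 (log2 fold change -0.75, adjusted p = 0.0287), limma's voomWithQualityWeights (-0.70, adjusted p = 0.027) and the edgeR fit with the identifier series added (-1.01, adjusted p = 0.0196) did call it, and the adjusted p ranged from 0.0196 to 0.55 over 21 alternatives, with the lower level at washout in each. At washout against pre-treatment these 3 fits called 1.57%, 5.34% and 10.7% of all genes tested (for DESeq2, of the genes it gave an adjusted p), where the fit used here called 0.0634%, and at washout against post-treatment 3.29%, 0.174% and 21% against 0.19%. Compared to post-treatment, MYF6 was lower at washout in 6 of 7 animals, with a log2 fold change of -0.63 (SE 0.19, edgeR adjusted p = 0.148). Within the last identifier series, without a test, washout differed from pre-treatment by -1.16 in mean log2 CPM (6 and 2 libraries) and from post-treatment by -0.48 (6 and 3 libraries). These means do not pair the animals. The 2 pre-treatment libraries were of animals 19832 and 20275, whose own differences were -1.21 and -0.76. The 3 post-treatment libraries (animals 21189, 21866 and 24849) were among those with few fibre transcripts.

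MYOG, myogenin, which is needed for myoblasts to differentiate and which denervated fibres switch on again, had a lowest, median and highest level of 18.9, 59.1 and 113.5 CPM pre-treatment. Post-treatment these were 37.9, 44.9 and 103.5 CPM, and at washout 15.6, 30.04 and 56.3 CPM. Apart from animal 21189 at 103.5 CPM, the post-treatment libraries lay between 37.9 and 49.5 CPM, and at washout 6 of 7 libraries were at or below 31 CPM with animal 23004 above them. MYOG was lower at washout in 6 of 7 animals than post-treatment (log2 fold change -0.93, SE 0.37, p = 0.0254, adjusted p = 0.23 in edgeR's quasi-likelihood test) and in 5 of 6 animals than pre-treatment (-0.97, SE 0.40, p = 0.0283, adjusted p = 0.324). In 2 of those 5 animals, 23004 and 24849, the difference was -0.03 and -0.05, and the largest were -2.41 in animal 22130 and -1.87 in animal 19832. With the identifier series in the fit, which called 21% and 10.7% of all genes, MYOG was called against both, at -1.45 (adjusted p = 0.0263) and -1.52 (adjusted p = 0.0343), and over the 21 alternatives the edgeR, DESeq2 or limma adjusted p ranged from 0.0263 to 0.636 and from 0.0343 to 0.761.

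Between post-treatment and pre-treatment, MYOG differed by a log2 fold change of -0.03 (SE 0.41), and the animals went apart, from -1.34 in animal 19832 to 2.45 in animal 21189. The post-treatment library of animal 21189 weighed on the later comparison, since without it MYOG at washout was at -0.55 relative to post-treatment (edgeR adjusted p = 0.602) and at -0.85 relative to pre-treatment (adjusted p = 0.265). That library, the one with the least fibre marker transcript, was also highest of the 21 SM libraries in MYH3 and MYH8, the embryonic and perinatal myosin heavy chains (2327 and 564 CPM, medians 65.1 and 26.2), in CHRNA1 and CHRNG, the alpha and the fetal gamma subunit of the acetylcholine receptor (237.8 and 17.9 CPM, medians 28.4 and 2.48), and in MYMK, the membrane activator of myoblast fusion (28.3 CPM, median 0.0775). Other libraries did not pair these genes in the same way. The highest MYOG level, 113.5 CPM in the pre-treatment library of animal 19832, went with 7.36 CPM of CHRNA1, 17.5 of MYH8 and 0.0775 of MYMK. Its MYH3 and CHRNG were at 116.4 and 3.25 CPM, above their medians. The post-treatment library of animal 20275, next highest in MYH3 and MYMK, had 49.5 CPM of MYOG. The part of these genes in the MYOG value of animal 21189 was not tested.

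Summed markers of some other cell types also had other median levels at washout. The 5 smooth muscle and pericyte markers summed to a median of 78.7 CPM pre-treatment (44.0 to 132.6), 109.8 CPM post-treatment (58.0 to 237.5) and 160.9 CPM at washout (81.0 to 304.7), and the 5 endothelial markers to 115 CPM (89.7 to 151.4), 102.7 CPM (86.2 to 167) and 148.2 CPM (85.3 to 294.2). The blood markers, of which HBA1 and HBA2 were at 0 in all libraries, summed to medians of 38.1 CPM (8.18 to 126.7), 55.3 CPM (16.3 to 4276) and 839 CPM (63.1 to 1628). At washout against pre-treatment, 5 of 5, 4 of 5 and 2 of 2 markers had a higher fitted level (median log2 fold change 1.05, 0.40 and 4.02), with 0 called by edgeR. Over the 21 SM libraries Pearson's r with these 3 sums was -0.44, -0.38 and -0.40 for MYF6 and -0.23, -0.59 and -0.39 for MYOG. A negative r was not particular to them. Schwann cell markers (2 of 4 higher at washout against pre-treatment) had -0.45 for MYF6 and -0.42 for MYOG. Macrophage markers (3 of 6 higher) had -0.38 and -0.30, while lymphocyte markers had 0.17 and 0.23. The muscle fibre markers themselves were higher at washout than pre-treatment in 8 of 9 (median log2 fold change 0.18). Fibroblast and progenitor markers were higher in 3 of 6 (-0.01), adipocyte markers in 0 of 4 (-0.52) and the lymphocyte marker tested in 0 of 1 (-0.53), again with 0 called. The part of other cell types in the lower levels of MYF6 and MYOG was not tested.

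**Figure D1:**
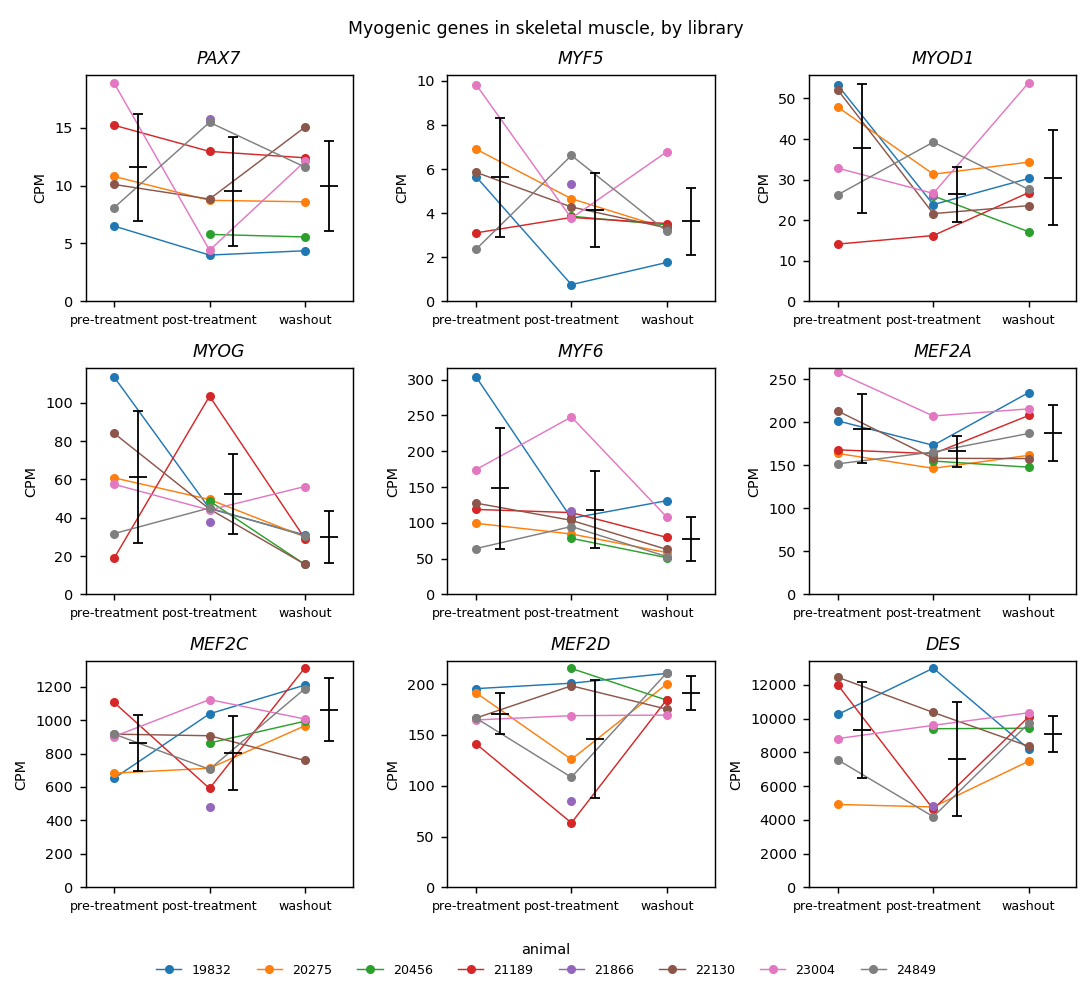
Level in CPM (TMM-scaled, each axis from 0) of the 9 genes in the 21 SM libraries by time point; points are libraries, lines join the libraries of 1 animal, and the black bars give the mean ± SD of the 6, 8 and 7 libraries. MYF6 and MYOG have their lowest means at washout (77.7 and 29.8 CPM), and all genes overlap between time points.

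Of the factors of satellite cells and early myoblasts, PAX7, MYF5 and MYOD1, none passed the test in any comparison. PAX7 had a lowest, median and highest level of 6.51, 10.5 and 18.9 CPM pre-treatment, 4.0, 8.79 and 15.8 CPM post-treatment and 4.37, 11.6 and 15.1 CPM at washout. Animal 19832 was lowest at each time point, and in animal 23004 PAX7 went from 18.9 CPM to 4.41 CPM and back to 12.1 CPM. The log2 fold changes of PAX7 were -0.38 (SE 0.27) post-treatment against pre-treatment, 0.20 (SE 0.25) at washout against post-treatment and -0.18 (SE 0.26) at washout against pre-treatment, with adjusted p from 0.714 to 0.9996 in edgeR's quasi-likelihood test.

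MYF5, the first myogenic factor to appear in the embryo and one that quiescent satellite cells keep, was covered by 10 to 211 counts per SM library. Its lowest, median and highest level was 2.36, 5.75 and 9.84 CPM pre-treatment, 0.754, 4.07 and 6.62 CPM post-treatment and 1.76, 3.33 and 6.79 CPM at washout. At washout 6 of 7 libraries were at or below 3.53 CPM and animal 23004 stood above them. The log2 fold change at washout against pre-treatment was -0.66 (SE 0.36, 95% interval -1.43 to 0.10, edgeR adjusted p = 0.434), with lower values in 4 of 6 animals. With the identifier series in the fit, where 10.7% of all genes were called, it was called (-1.23, adjusted p = 0.0328), and the adjusted p ranged from 0.0328 to 0.82 over the 21 alternatives.

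MYOD1, the factor that can turn fibroblasts into muscle cells, ranged from 14.1 to 53.2 CPM pre-treatment (median 40.3), from 16.2 to 39.2 CPM post-treatment (median 26.1) and from 17.1 to 53.9 CPM at washout (median 27.6). The means were 37.7 ± 15.9 CPM (SD, n = 6), 26.4 ± 6.79 CPM (SD, n = 8) and 30.5 ± 11.6 CPM (SD, n = 7). Animal 21189 was lowest before and after treatment, and 3 of 6 animals were higher and 3 lower at washout than pre-treatment. The largest fitted log2 fold change of MYOD1 was that of post-treatment against pre-treatment, -0.40 (SE 0.27, edgeR adjusted p = 0.9996).

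MEF2A had the lowest biological coefficient of variation of the 9 genes. Its level was 151.8 to 258 CPM pre-treatment (median 184.8), 146.5 to 207.4 CPM post-treatment (median 161.5) and 147.8 to 234.6 CPM at washout (median 187.1), and that coefficient, 18.1%, was at the 5.75th percentile of all genes tested (median 28.8%). The 95% interval of its log2 fold change at washout against pre-treatment ran from -0.26 to 0.26. The post-treatment libraries lay close together except for animal 23004, and the 3 time points overlapped throughout.

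MEF2C, which is needed for sarcomere assembly and has a muscle isoform that cannot be told from the others in gene counts, was at 652 to 1105 CPM pre-treatment (median 909), 481 to 1122 CPM post-treatment (median 787) and 758 to 1312 CPM at washout (median 1006). It was higher at washout than pre-treatment in 5 of 6 animals, with a log2 fold change of 0.31 (SE 0.20, edgeR adjusted p = 0.524), and higher than post-treatment in 5 of 7 (0.32, SE 0.19, adjusted p = 0.397). With the identifier series in the fit these were 0.64 (adjusted p = 0.0437) and 0.72 (adjusted p = 0.0176), where 10.7% and 21% of all genes were called, and over the 21 alternatives the adjusted p ranged from 0.0437 to 0.89 and from 0.0176 to 0.974. Without the 4 post-treatment libraries of low fibre marker level, the difference between washout and post-treatment was 0.01.

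MEF2D ranged from 141.3 to 195.6 CPM pre-treatment (median 166.7), from 63.5 to 215.4 CPM post-treatment (median 147.5) and from 169.6 to 211.3 CPM at washout (median 184.9). Post-treatment, 4 libraries lay below all libraries of the other time points, with 63.5 CPM in animal 21189, 84.8 in 21866, 108.4 in 24849 and 126 in 20275, and 169 to 215.4 CPM in the other 4. MEF2D was higher at washout than pre-treatment in 6 of 6 animals, by 0.04 to 0.39 on the log2 scale, and the fitted log2 fold change of 0.13 (SE 0.20) had an adjusted p of 0.811 in edgeR's quasi-likelihood test. Against post-treatment it was 0.38 (SE 0.19, adjusted p = 0.316).

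DES had the same split post-treatment. The libraries of animals 24849, 21189, 20275 and 21866 were at 4191, 4633, 4767 and 4809 CPM, and the other 4 were at 9397 to 12981 CPM. Pre-treatment DES ranged from 4914 to 12441 CPM (median 9527) and at washout from 7476 to 10340 CPM (median 9426), so that washout was the narrowest group. The mean was 9323 ± 2845 CPM (SD, n = 6), 7592 ± 3381 CPM (SD, n = 8) and 9087 ± 1082 CPM (SD, n = 7), and the log2 fold changes were -0.28 (SE 0.27) post-treatment against pre-treatment, 0.28 (SE 0.25) at washout against post-treatment and 0.0036 (SE 0.26) at washout against pre-treatment. None was called, while the fit with the identifier series called DES and 21% of all genes at washout against post-treatment (0.81, edgeR adjusted p = 0.0427), with adjusted p from 0.0427 to 0.869 over the 21 alternatives and a value of -0.14 without the 4 libraries of low fibre marker level.

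Each of the 3 comparisons asks whether muscle transcripts of these factors differed between the time points. None of the 9 genes was differentially expressed (DE) in any of them with edgeR, where DE stands for a log2 fold change of more than 0.26 in size whose adjusted p lies under 0.05. All genes tested gave 0% DE post-treatment against pre-treatment, 0.19% at washout against post-treatment and 0.0634% at washout against pre-treatment, so that 0 of 9 is near the background. At an unadjusted p under 0.05 the counts among the 9 genes were 0, 2 and 2, the latter MYF6 and MYOG with lower values at washout in both comparisons, where 3.25%, 17.3% and 13.4% of all genes were under that limit. DESeq2 and voomWithQualityWeights, the latter the method of the study, each called 0, 0 and 1 of the 9. The 1 was MYF6 at washout against pre-treatment, where they called 1.57% and 5.34% of all genes. At the same limits, the paper also reports many more DE genes in SM for that comparison than edgeR called here. The share of all genes called at washout thus depends on the fit. No gene of the 9 had time points that did not overlap, against 0.00793%, 0.705% and 1.51% of all genes.

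Post-treatment, all 9 log2 fold changes against pre-treatment were below 0, from -0.02 for MEF2C to -0.49 for MYF5, with a median of -0.25 against -0.02 over all genes tested. Of all genes tested, 46.2% lay above 0. The sign turned under at least 1 alternative for MEF2C, MEF2D, DES, MYOG and MYF6. Without the 4 post-treatment libraries of low fibre marker level, MEF2C (0.36), MEF2D (0.26) and DES (0.21) lay above 0, while MYF5 (-1.01), PAX7 (-0.76) and MYOD1 (-0.56) lay further below it, with edgeR adjusted p from 0.195 to 0.605 for these 6 genes. A test of any difference among the 3 time points called 0 of the 9 with edgeR, where 0.166% of all genes were called, and MYF6 came closest (F 8.87, p = 0.00289, adjusted p = 0.199).

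**Figure D2:**
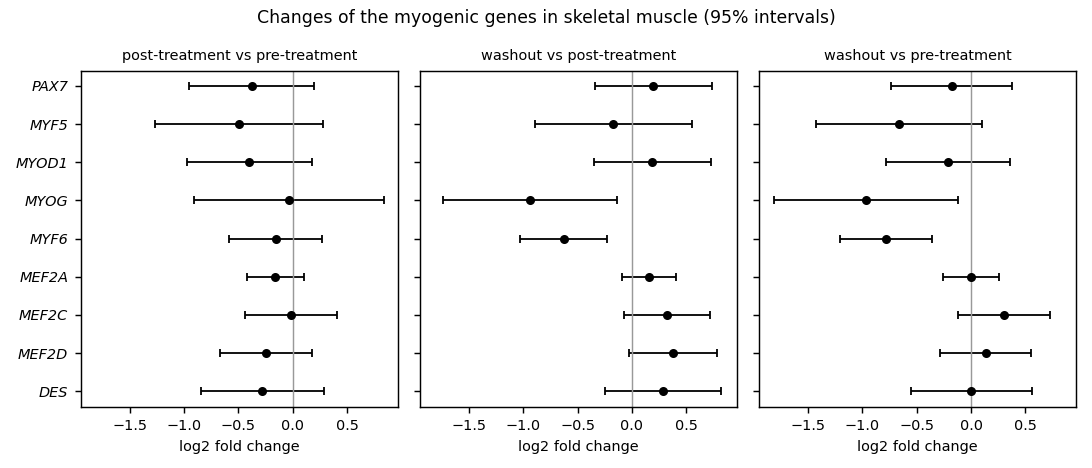
Fitted log2 fold change of the 9 genes in SM in 3 comparisons; points are edgeR estimates and bars 95% intervals, with 0 as the grey line. The intervals of MYF6 and MYOG leave out 0 in both washout comparisons (MYF6 -1.21 to -0.36 against pre-treatment), and no gene passed the adjusted p limit.

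**Figure D3:**
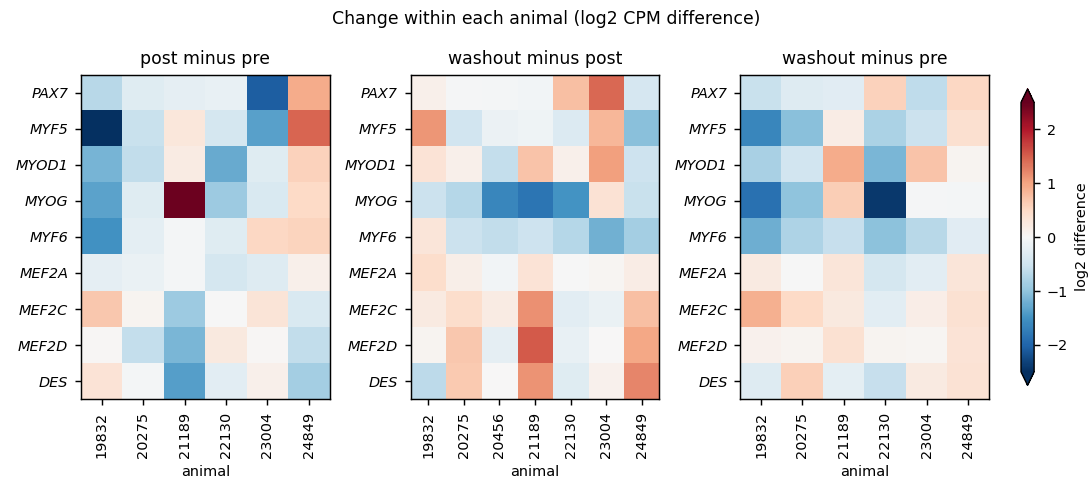
Difference in log2 CPM within each animal that had both libraries (columns) for the 9 genes (rows), with red for higher and blue for lower at the later time point; the colours are cut at 2.5 in either direction. MYF6 is blue in 6 of 6 animals at washout minus pre-treatment (-0.28 to -1.21), and MYOG in animal 21189 is highest at 2.45 in post minus pre.

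The levels of DES, MEF2C and MEF2D moved with the amount of fibre transcript in a library. Over the 21 SM libraries, Pearson's r of log2 level with the summed fibre markers was 0.93 for MEF2D, 0.79 for DES and 0.74 for MEF2C, but -0.56 for PAX7, and with the summed fibroblast and progenitor markers it was -0.82, -0.71, -0.62 and 0.68. Spearman's rho, for the genes in that order, was 0.86, 0.58, 0.69 and -0.71 with the fibre markers. With the fibroblast and progenitor markers it was -0.80, -0.61, -0.49 and 0.69. MYF6, MYOG and MYOD1 had a Pearson r between -0.36 and 0.13 with the fibre markers. These are descriptions: the libraries share animals and depth, and all levels in a library are relative to the same total. The part of fibre content in the differences between time points was not tested.

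**Figure D4:**
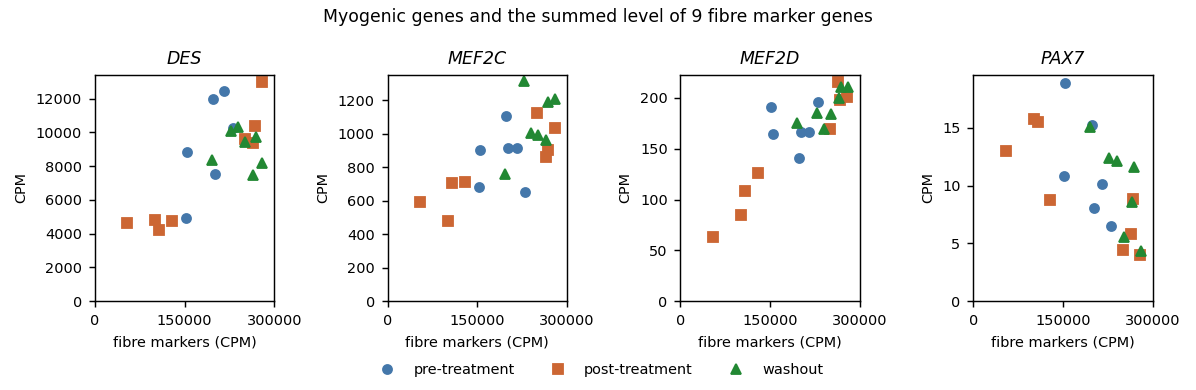
Level of 4 of the genes in CPM (vertical axes, from 0) against the summed level of 9 fibre marker genes in CPM (horizontal axes, from 0) in 21 SM libraries; symbols mark the time points. The 4 post-treatment libraries at 54511 to 129265 CPM of fibre markers have the 4 lowest levels of DES and of MEF2D, while MEF2C has r 0.74 and PAX7 r -0.56 with the fibre markers.

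MYF6 was the 1 gene of the 9 called for a difference between animals. In the test of the animal term it had F 6.41 (edgeR adjusted p = 0.0339), and 5.7% of all genes were called, so that 1 of 9 is near the background. Animals 19832 and 23004 were the highest pre-treatment and at washout (304 and 174.3, and 130.9 and 108 CPM), and animal 23004 was highest post-treatment. The call was lost without any of animals 20275, 20456, 22130, 23004 or 24849 (adjusted p = 0.101, 0.0565, 0.0502, 0.103 and 0.0685), without the washout library of animal 23004 (0.0639) and with library size as the only scaling (0.14). PAX7 (F 3.49, adjusted p = 0.139) came next and MYOG had the lowest F (0.517, adjusted p = 0.851).

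The 9 genes did not move as 1 set over the 21 SM libraries. The highest Pearson r of log2 CPM were 0.70 for MEF2C and DES, 0.67 for MEF2D and DES, 0.66 for MEF2C and MEF2D, 0.61 for MYOG and MYF6 and 0.61 for MYF5 and PAX7. The lowest was -0.49 for PAX7 and MEF2D. With the means of the time points removed, the high pairs were at 0.69, 0.61, 0.57, 0.46 and 0.59. MYF6 with MEF2A then had 0.78, MYOD1 with MYOG 0.67 and PAX7 with MEF2D -0.64. Spearman's rho, without that removal, was 0.54, 0.41, 0.44, 0.54 and 0.45 for the same high pairs. It was highest for MYOG and MYF5 (0.69, Pearson's r 0.39).

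**Figure D5:**
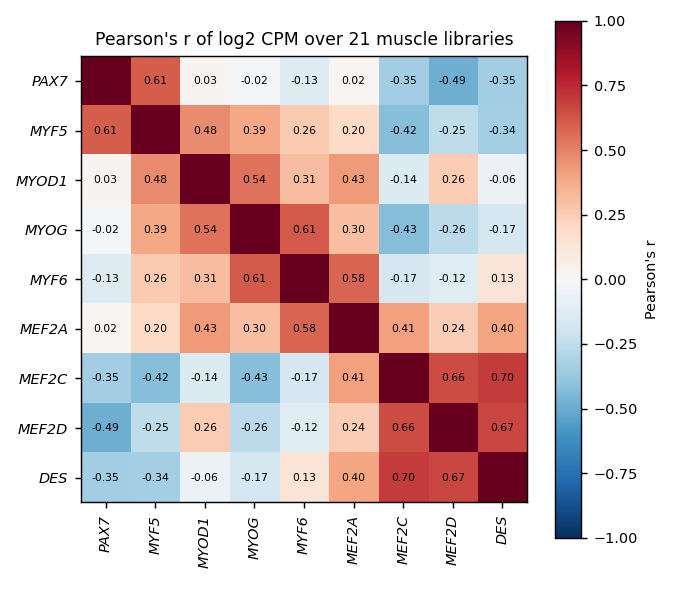
Pearson's r of log2 CPM for each pair of the 9 genes over the 21 SM libraries, as colour from -1 (blue) to 1 (red) and as a printed value. DES, MEF2C and MEF2D form a block of 0.66 to 0.70 (Spearman's rho 0.41 to 0.54), and PAX7 with MYF5 (0.61) and MYOG with MYF6 (0.61) are the next highest pairs.

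Of the other 12608 genes tested, the 1 with the highest Pearson r of log2 CPM over the 21 SM libraries was MSC for PAX7 (0.87), musculin, a helix-loop-helix repressor of myogenic factors. For DES it was CACNA1S (0.94), the voltage sensor of the T-tubule calcium channel, and for MEF2D it was SLC6A8 (0.95), the creatine transporter. MEF2C ran with TLK2 (0.96), a chromatin-assembly kinase, MYF5 with KCNN4 (0.82), a calcium-activated potassium channel, MYF6 with PSMA4 (0.87), a proteasome subunit, and MYOG with LSM7 (0.89), an RNA-binding protein of the spliceosome. MYOD1 was nearest to MRPL57 (0.84), a protein of the mitochondrial ribosome, and MEF2A to SPCS3 (0.81), a subunit of the signal peptidase. Each partner is the highest of 12608 values over libraries that share animals, so a high r is no evidence of a link. For MYOD1, COMTD1 was all but level with MRPL57 (0.8350 and 0.8356). MSC and KCNN4 had mean levels of 2.83 and 1.70 CPM.

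The genes around the 9 in their pathways were counted in 8 lists. Of 154 genes in the table, 148 were tested in SM, and edgeR called 0 in each comparison and each direction. At an unadjusted p under 0.05, 4 were higher and 4 lower post-treatment against pre-treatment, 22 and 5 at washout against post-treatment, and 12 and 5 at washout against pre-treatment. These are 5.41%, 18.2% and 11.5% of the 148 genes, near the 3.25%, 17.3% and 13.4% of all genes. The median log2 fold changes of the 148 genes were -0.10, 0.05 and 0.07, beside -0.02, -0.03 and -0.05 over all genes. A higher fitted level was found for 60, 79 and 84 of the 148 genes, and for 46.2%, 46.4% and 43.6% of all genes. The counts of direction in the lists below stand beside these shares and were not tested.

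Genes of fusion and of newly formed fibres had the list median farthest from that of all genes in each comparison. Of 10 tested, 9 had a higher fitted level post-treatment than pre-treatment (median log2 fold change 0.70) and 9 a lower one at washout than post-treatment (-1.44), with 0 called. MYMK had a log2 fold change of 3.41 (SE 1.15) post-treatment and MYH3 0.80 (SE 0.90), and both had their maximum in the post-treatment library of animal 21189, which held 692 counts of MYMK. The post-treatment library of animal 20275 was next in both, with 521.7 CPM of MYH3 and 75 counts of MYMK. In the remaining post-treatment libraries MYH3 lay between 31.5 and 114.3 CPM, against 51.9 to 194.3 CPM pre-treatment and 29.1 to 102.2 CPM at washout. MYMK had 0 to 12 counts in those remaining post-treatment libraries.

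Another list held synapse genes and others linked to myogenin, 15 of them tested. Of these, 9 had a lower level post-treatment than pre-treatment, 13 a lower level at washout than post-treatment and 12 a lower one than pre-treatment (medians -0.20, -0.52 and -0.35), with 0 called. CHRNA1 had means of 66.01, 68.6 and 20.2 CPM at the 3 time points and a log2 fold change of -1.18 (SE 0.70, edgeR adjusted p = 0.49) at washout against pre-treatment. CHRNG had 5.06, 5.66 and 2.5 CPM and -1.10 (SE 0.70, adjusted p = 0.51). At washout all 7 libraries were between 13.4 and 32.03 CPM of CHRNA1, while pre-treatment they ran from 7.36 to 195.4 CPM.

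Among 17 tested satellite cell and myoblast genes, 5 had a higher and 12 a lower level post-treatment than pre-treatment, 9 and 8 at washout against post-treatment, and 7 and 10 at washout against pre-treatment. CDH15, M-cadherin, which anchors satellite cells to the fibre, differed by 0.14 (SE 0.19) at washout against post-treatment, MET, their receptor for hepatocyte growth factor, by 0.35 (SE 0.12, adjusted p = 0.182) and NOTCH3 by 0.64 (SE 0.23, adjusted p = 0.19). PAX3, the paralogue of PAX7, was at 1 to 64 counts per library and differed by -0.63 (SE 0.66). HES1, a target of Notch signalling chosen after its values were seen, differed by -0.72 (SE 0.36, edgeR adjusted p = 0.314), and at washout against pre-treatment by -1.02 (SE 0.38, adjusted p = 0.293).

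Partners and inhibitors of the myogenic factors were 19 genes, of which 10 were lower post-treatment than pre-treatment, 14 lower at washout than post-treatment and 11 lower at washout than pre-treatment. The E proteins TCF3 and TCF12 differed by -0.12 (SE 0.20) and 0.30 (SE 0.14) at washout against pre-treatment. ID1, ID2 and ID3, which bind E proteins and keep them from the myogenic factors, differed by -0.58 (SE 0.30), -0.36 (SE 0.44) and -0.32 (SE 0.27).

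Of 23 corepressors and cofactors of MEF2, 16 had higher levels at washout than post-treatment and 16 than pre-treatment. HDAC4, HDAC5 and HDAC9, class IIa deacetylases that bind and repress MEF2, differed at washout against pre-treatment by 0.26 (SE 0.15), -0.17 (SE 0.15) and -0.68 (SE 0.29). The known MEF2 targets numbered 18, with 14 higher and 4 lower at washout than pre-treatment (median 0.11). CKM, muscle creatine kinase, differed by 0.18 (SE 0.33) and MB, myoglobin, by 0.07 (SE 0.34).

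Of 26 other muscle transcription factors, 22 were higher at washout than post-treatment and 20 than pre-treatment (medians 0.29 and 0.19), with 0 called. In the list of desmin partners and intermediate filaments, 12 of 20 were higher at washout than post-treatment. PLEC, plectin, which links desmin to the Z-disc and membrane, had means of 765, 641 and 1340 CPM, and washout differed from post-treatment by 1.12 on the log2 scale (SE 0.35, edgeR adjusted p = 0.155). SYNM, synemin, had 0.47 (SE 0.35), CRYAB, the chaperone of desmin, -0.20 (SE 0.21), VIM -0.26 (SE 0.50) and NES -0.11 (SE 0.45).

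In the adipose biopsies of the same cohort, PAX7 and the 4 myogenic factors were at or near 0. In 27 AT libraries MYF5 had 0 counts in all, MYOD1 at most 1, PAX7 at most 2, MYOG at most 3 and MYF6 1 to 18 counts per library, against 848 to 4605 counts of MYF6 in SM. MEF2A, MEF2C and MEF2D were expressed in AT at medians of 129.5, 83.1 and 46.4 CPM, and DES at a median of 13.1 CPM.

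For the 5 genes tested in both tissues, the change in SM minus the change in AT was tested over 12322 genes. Post-treatment against pre-treatment 0 of 5 were called (0.0487% of all genes). At washout against pre-treatment 1 of 5 was called, MYF6 at -1.58 (SE 0.44, edgeR adjusted p = 0.0123), where 17.5% of all genes were called. Its AT side rests on 1 to 18 counts per library, and the call was lost without the animals in the fit (-1.36, adjusted p = 0.073). DES differed between the tissues by -2.20 (SE 0.84, adjusted p = 0.0698).

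The difference between tissues in DES was not called. In AT, DES was higher at washout than pre-treatment by a log2 fold change of 2.26 (SE 0.60, edgeR adjusted p = 0.00831). This came from the fit over both tissues, in which 14.9% of all genes were called for this comparison. Post-treatment against pre-treatment, none of the 5 genes was called in AT (6.32% of all genes). DES in AT ranged from 4.27 to 117.5 CPM pre-treatment (median 12.4), from 4.76 to 127.1 CPM post-treatment (median 11.6) and from 5.65 to 414 CPM at washout (median 97.2). At washout animals 20261, 21189, 21866 and 23004 were at 414, 373.6, 302.5 and 133.5 CPM, and animals 22130, 24849 and 26292 were under 8 CPM, with animal 20275 at 61 CPM. The libraries of animals 20261, 21189, 21866 and 23004 were those of the last identifier series at washout, and the others were in the first or middle series. Libraries of the last series ran from 4.27 to 117.5 CPM pre-treatment and from 4.76 to 127.1 CPM post-treatment. DES is also a smooth muscle filament, and over the 27 AT libraries its log2 level had a Pearson r of 0.87 with the summed smooth muscle and pericyte markers (114.3 to 2709 CPM) and of 0.02 with the summed fibre markers (66.3 to 188.3 CPM). The part of either cell type, or of the identifier series, in the DES level at washout was not tested.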

How the data were processed

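Gene counts were analysed for SM biopsies at 3 time points, with AT as a comparison. Stranded paired-end mRNA reads were mapped to MacaM with STAR by the authors, who deposited whole-number counts per gene with no normalization; the counting tool is not given in the sources used here. A further 70 entries that listed a gene again were dropped. The table had 48 libraries for 51 labelled samples; the other 3, of SM (animals 20456 and 21866 before treatment, and 21866 after washout), were not analysed here. Columns left out as belonging to no sample numbered 0.

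Tests covered the genes that reached 0.5 CPM in 10% or more of a tissue's libraries. They were run in edgeR 4.0.16 (R 4.3.3) with TMM scaling and a robust quasi-likelihood fit of time point and animal, two-sided, p-values being adjusted by Benjamini and Hochberg's method over the whole table, and log2 CPM with a prior count of 2. The difference between tissues was an interaction term over the genes tested in both. DESeq2 1.42.0 and limma 3.58.1 served as alternatives. The study itself used limma's voomWithQualityWeights with time point and animal in the model. Scripts were tested on simulated data. Figures used Python 3.11.15 and matplotlib 3.10.9. Animals are the replicates: libraries of 1 animal were sampled from the same individual, and the median correlation of their deviations from the time point means was 0.279 over 19 pairs (14 above 0.1), against -0.0464 over 127 pairs of different animals.

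The genes, the lists and the markers were chosen with earlier results of these data known. Every one of the 9 genes was named, with other pathway genes from a list fixed by name, the gene most alike to each, and any list gene that was called, of which there were 0. Named list genes MEF2B and MUSK were not used here. Not every named list gene is reported here. MYMK is listed under the symbol TMEM8C. CPM are not divided by gene length, so levels were compared between samples and not between genes. Without replicate libraries of an animal at 1 time point, the spread covers animals and biopsies together.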

Additional observations from a re-analysis of the deposited data

Results flagged for a closer look

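In 27 groups of libraries (9 genes at 3 time points in SM), 5 had a highest library with a gap to the next beyond Dixon's 95% critical value. The gaps were taken on CPM and not on the log2 scale. Chance flags about 1 in 20 groups only where values follow a normal distribution, which was not checked, so 5 cannot be set against that rate. Whether the same libraries stand out on the log2 scale was not tested. MYOG post-treatment reached 103.5 CPM in animal 21189, with the next library at 49.5 CPM. At washout, animal 23004 was highest in MYOG (56.3 CPM, next 31 CPM) and in MYF5 (6.79 CPM, next 3.53 CPM). Post-treatment, animal 23004 was highest in MYF6 (247.9 CPM, next 116.7 CPM) and in MEF2A (207.4 CPM, next 173.3 CPM). Of these 5 values, 4 belonged to animal 23004.

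The change of MYF6 from pre-treatment to washout differed between SM and AT by a log2 difference of -1.58 (edgeR adjusted p = 0.0123), with 1 to 18 counts per library in AT.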

How the results depend on the processing

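Over 21 alternatives for each of 27 fold changes in SM, 516 of 567 values kept their direction and their side of the limits, 10 were newly called and 41 changed sign, the largest of these at 0.41 in size. Depth limits MYF5, at 10 to 211 counts per SM library, and MYF6 in AT. For the counts of genes called, the order is washout against post-treatment, washout against pre-treatment and any time point, with 24, 8 and 21 of all genes in the fit as reported and 0, 0 and 0 of the 9 genes.

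DESeq2 called 359, 179 and 275 genes and 1 of the 9 at washout against pre-treatment and at any time point; MEF2C post-treatment was at 0.0075 and MEF2A at washout against pre-treatment at 0.038. voomWithQualityWeights called 674 and 258 genes in the latter 2, with 1 of the 9 in each; post-treatment MEF2C was at 0.12 and MEF2D at 0.012, MYF5 at washout against post-treatment at 0.14 and MEF2A against pre-treatment at 0.016. DESeq2 size factors in edgeR called 22 genes at washout against pre-treatment, with MEF2C at 0.0076 and MEF2A at 0.038. Library size alone called 4, 3 and 13 genes and 0 of the 9 between animals, with MYOG at 0.028 and MEF2C at 0.0084 post-treatment and DES at -0.084 against pre-treatment; it moved the median of all genes at washout from -0.03 to -0.16 against post-treatment and from -0.05 to -0.12 against pre-treatment. Without a filter on low counts MEF2A was at 0.0038. At least 10 counts in every library called 17 and 37 genes in the latter 2, and 381 between animals. Only the 2 time points compared called 2 genes at washout against post-treatment, with MEF2A at 0.0502 against pre-treatment. The earlier method of edgeR called 3 genes at washout against pre-treatment and 435 between animals.

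Without the replicate block, that is without the animals, 224, 41 and 86 genes were called, DES at washout against pre-treatment was at -0.037, 3 genes against 6 differed between tissues post-treatment, with DES at 0.13, and 0 of the 5 genes at washout. The identifier series called 2650, 1355 and 1664 genes and 4, 4 and 3 of the 9, with MYOD1 at -0.064 and PAX7 at -0.24 at washout against post-treatment. At any time point the 3 were MYOG, MYF6 and MEF2C.

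Alternatives chosen after seeing the data left out libraries. Without the post-treatment library of animal 21189, 2, 32 and 39 genes were called, with MEF2C post-treatment at 0.13 and MEF2A at 0.039. Without the washout library of animal 23004, 51, 23 and 33 genes were called, 417 between animals with 0 of the 9, and MEF2A was at 0.033. Without the 4 post-treatment libraries of low fibre marker level, 0, 321 and 95 genes and 1 post-treatment were called; post-treatment MEF2C, MEF2D and DES were at 0.36, 0.26 and 0.21, at washout MYF5, MEF2D and DES at 0.41, -0.061 and -0.14 against post-treatment, and MEF2A at 0.042 against pre-treatment.

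Leaving out each animal in turn, the genes called ranged from 0 to 34, from 0 to 22 and from 3 to 41, and from 313 to 734 between animals with 0 to 1 of the 9. Signs turned for MYOG (-0.42 to 0.27), MYF6 (-0.29 to 0.083) and MEF2C (-0.14 to 0.17) post-treatment, MYF5 at washout against post-treatment (-0.34 to 0.065), and MEF2A (-0.041 to 0.084) and DES (-0.072 to 0.13) at washout against pre-treatment. The cause of these changes was not tested.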
